A study of Homo sapiens with 6 samples.

Results

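The globin genes were examined in K562 cells, an erythroleukaemia-like line from a chronic myeloid leukaemia in blast phase. The 10 members were chosen by symbol, as the rows of the deposited count table whose Ensembl identifiers carry the names HBZ, HBM, HBA2, HBA1 and HBQ1 (the alpha cluster) and HBE1, HBG2, HBG1, HBD and HBB (the beta cluster), 10 of 61661 rows. The series compared shCTR cells, infected with a pLent-U6-GFP-puro lentivirus that carries a nonsense sequence, with cells in which an shRNA targets METTL3 (shMETTL3) or METTL14 (shMETTL14), the catalytic and the RNA-binding subunit of the complex that writes N6-methyladenosine (m6A) on mRNA. For shCTR and shMETTL3 cells the vectors were delivered by lentivirus, the cells were selected with puromycin and each is a stable line; the labels name shMETTL14 cells without further detail, and the labelled genotype of the shCTR cells is WT. All cells were harvested in logarithmic growth. The knockdown in a group cannot be told apart from other traits of its cells or from off-target action of its shRNA. Each group had 2 poly(A)-selected RNA-seq libraries, 6 in all, and nothing states that the libraries of a group came from separate cultures, so that p-values measure the spread between these libraries, which may be technical.

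Haemoglobin is built from paired alpha-like and beta-like chains, each of which holds a haem. The genes of each cluster lie in the order in which they are used in development: HBZ and HBE1 code for the embryonic zeta and epsilon chains, HBG2 and HBG1 for the fetal gamma chains, HBA2 and HBA1 for the alpha chains of fetal and adult haemoglobin, and HBB and HBD for the adult beta and delta chains. HBM codes for the mu chain and HBQ1 for the theta chain, whose use in haemoglobin is not established. K562 cells are a textbook model of erythroid cells that use embryonic and fetal rather than adult beta-like genes, and their globin genes can be induced by agents such as hemin.

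On GRCh38 in GENCODE release 29, the alpha cluster lies on the plus strand of chromosome 16, from the start of HBZ (ENSG00000130656) at 152687 to the end of HBQ1 (ENSG00000086506) at 181181. HBM (ENSG00000206177) spans 153892 to 166768, HBA2 (ENSG00000188536) 172876 to 173710 and HBA1 (ENSG00000206172) 176680 to 177522. The beta cluster lies on the minus strand of chromosome 11, where HBB (ENSG00000244734) spans 5225464 to 5229395, HBD (ENSG00000223609) 5232678 to 5243657 and HBG1 (ENSG00000213934) 5248079 to 5249859. The models of HBG2 (ENSG00000196565), from 5253190, and of HBE1 (ENSG00000213931), from 5268345, hold long transcripts that run to 5505605 and 5505652, across a stretch of olfactory receptor genes.

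Of the members, 2 of 10 had an entry in the RefSeq table of promoters (GRCh38.p14), HBD and HBM. They are the weakly read delta-chain gene and the member at the floor of detection, and the 250 bases before their start sites are printed to show the letters that the text refers to. The motifs searched on both strands, in windows of 250 bases before and 50 bases after the start, were those of globin promoters. They were CCAAT and, as the sequence that KLF1-type factors are known to bind, CACCC. The letters GATAA were searched as the core sequence of GATA factors, and TATAA as that of the general initiation machinery. None of the matches in these windows overlaps another, and capitals mark a match, also where it lies on the other strand. HBD was read from chr11:5234484-5234733 on the minus strand, and HBM from chr16:165728-165977 on the plus strand.
HBD: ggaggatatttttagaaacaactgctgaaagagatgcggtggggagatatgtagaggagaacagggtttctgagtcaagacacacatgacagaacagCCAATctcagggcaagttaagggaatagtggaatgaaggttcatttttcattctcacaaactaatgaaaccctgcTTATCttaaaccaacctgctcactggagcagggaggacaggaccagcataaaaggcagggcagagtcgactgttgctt
HBM: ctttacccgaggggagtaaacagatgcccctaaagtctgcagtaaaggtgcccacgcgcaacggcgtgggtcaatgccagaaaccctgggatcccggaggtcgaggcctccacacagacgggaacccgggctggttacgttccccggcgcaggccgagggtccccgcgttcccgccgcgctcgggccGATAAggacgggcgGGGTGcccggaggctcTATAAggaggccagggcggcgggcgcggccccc
The HBD window held CCAAT 153 bases before the start and GATAA on the other strand 78 bases before it, and neither CACCC nor TATAA. The HBM window held GATAA 63 bases, CACCC on the other strand 49 bases and TATAA 33 bases before the start, and no CCAAT. Of 35116 windows of the same length in the table, 34.6% held CCAAT, 59.9% CACCC, 22.7% GATAA and 20.4% TATAA, so that each of these letters is common and a match describes the sequence only.

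Library totals ran from 19292574 to 20115304 reads, and the 10 globin genes together held between 5751 and 11451 of them. METTL3 was read 1788 and 1728 times in shCTR and 1031 and 938 times in shMETTL3 libraries (log2 fold change -0.87, adjusted p = 3.44e-07 by edgeR's quasi-likelihood test, with the Benjamini-Hochberg method over all genes tested, as for each adjusted p that follows). For METTL14 the shCTR libraries held 656 and 655 reads and the shMETTL14 libraries 375 and 404 (log2 fold change -0.76, adjusted p = 1.40e-05). No library repeated another of its group: chi-square over the paired counts averaged 5.03 a gene for the shCTR pair, 2.90 for the shMETTL3 pair and 2.45 for the shMETTL14 pair, where sampling alone gives about 1. The 5 erythroid markers reported here (GATA1, KLF1, TAL1, TFRC and EPOR) were read in every library, with a summed level between 1350 and 1440 CPM (reads relative to the library total, adjusted by TMM factors from edgeR).

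By the reads as counted, the beta-like output was mostly embryonic, while the embryonic HBZ held 6.67% and 5.73% of the alpha-like reads of the shCTR libraries. HBE1 alone held 95.1% and 96.1% of the beta-like reads of the shCTR libraries, whereas HBB, the adult beta gene, had 8 and 3 reads. To set genes side by side, CPM were divided by the length of the merged exons in kilobases. On this per-length scale the mean level in shCTR cells (n = 2, SD) was 217 ± 16.6 for HBE1, 68.6 ± 7.23 for HBQ1, 38.0 ± 8.51 for HBA1, 21.8 ± 1.72 for HBA2, 7.77 ± 0.370 for HBG2, 7.53 ± 0.217 for HBZ, 1.32 ± 0.000848 for HBD, 0.478 ± 0.186 for HBG1 and 0.215 ± 0.135 for HBB. HBG2 and HBZ overlapped between libraries in this order, and the other neighbours did not. HBE1 ranked 134 of 16662 tested genes with a length in shCTR cells, 99 in shMETTL14 and 56 in shMETTL3 cells.

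The order changed at one place in shMETTL3 cells, where HBZ (15.3 ± 2.46 CPM per kilobase, SD, n = 2) stood above HBG2 (7.76 ± 0.211) without overlap. In shMETTL14 cells HBZ (7.86 ± 1.28, SD, n = 2) and HBG2 (7.97 ± 0.0699) overlapped, as did HBG1 and HBB. HBQ1 stood above HBA1 in each group, at 62.5 ± 0.740 against 58.3 ± 4.46 CPM per kilobase in shMETTL3 cells (SD, n = 2), but with the length of the longest transcript HBA1 stood higher there, at 72.2 ± 5.52 against 62.5 ± 0.740. Levels per length between these 2 genes therefore depend on the gene model.

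**Figure D1:**
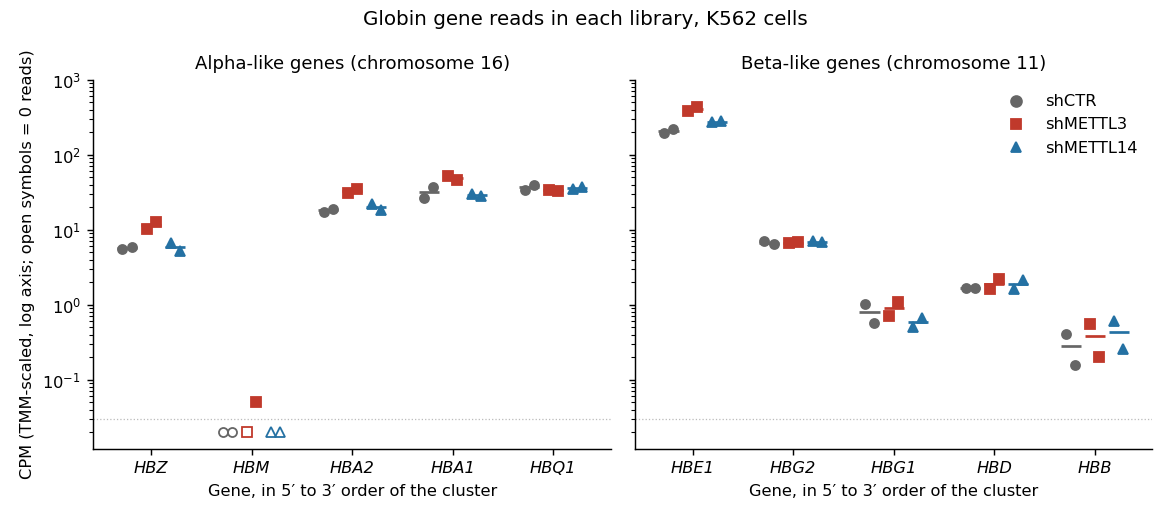
Level of each globin gene in each of the 6 libraries, as CPM on a log axis; symbols are libraries, short lines group means, and open symbols at the bottom libraries with 0 reads. HBE1, HBZ, HBA2 and HBA1 stand higher in both shMETTL3 libraries than in both shCTR libraries, while HBG2 and HBQ1 stay between 6.53 and 6.98 CPM and between 33.2 and 39.5 CPM in every library.

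Several members share sequence or exons, which bears on how reads could be counted. Of the windows of 100 bases in the transcripts of HBA2 and HBA1, 20.9% and 20.7% were found in no other gene of the annotation, and the others were shared between this pair. The share was 45.1% for HBG2 and 74.0% for HBG1, which have 329 windows in common, 60.7% for HBZ, 34.4% for HBE1, and 100% for HBQ1, HBD and HBB. HBG2 and HBG1 also share windows with other gene models, 365 and 389 with AC104389.5 and 199 and 171 with AC104389.4. Of the 869 exon bases of HBG2, 335 (38.6%) are also exons of other genes on the same strand. For HBE1 the sharing is with overlapping gene models: 865 of its 961 exon bases (90.0%) are also exons of other genes on the same strand, 781 of them of AC104389.4, a model that reads through from an upstream start. AC104389.4 had at most 3 reads in a library. Reads that fit both models could have been left out of both counts, so this number does not show that the model is silent. The same holds for reads of HBG2 that fit AC104389.4, with which HBG2 has 298 exon bases in common. OR51B5, which overlaps 84 exon bases of HBE1, had 1085 to 1417 reads in a library. How the authors' counting treated reads that fit several places is not given in the sources used here. The split of reads within the pairs HBA1 and HBA2, and HBG1 and HBG2, is therefore uncertain. So are the summed level of each pair and the absolute level of HBE1, since such reads may have been left out. Shares and per-length levels that set these genes beside others, such as HBQ1, carry the same uncertainty. In bulk RNA, fewer cells that express a gene and less RNA per cell cannot be told apart.

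**Figure D2:**
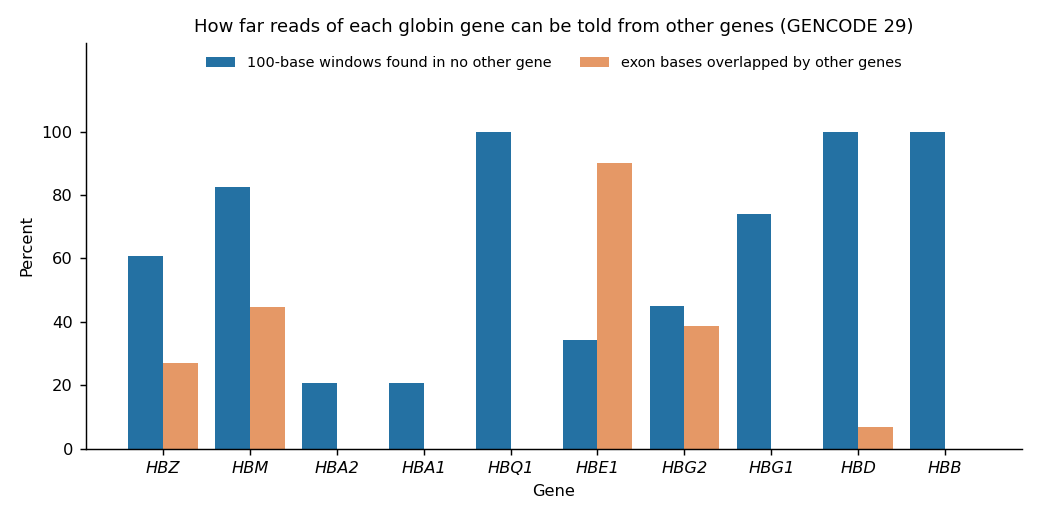
For each globin gene, the percentage of 100-base transcript windows that occur in no other GENCODE gene (blue) and the percentage of its exon bases that other genes also annotate (orange). HBA2 and HBA1 have the lowest share of windows of their own, 20.9% and 20.7%, and HBE1 the highest share of overlapped exon bases, 90.0%.

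In shMETTL3 cells, 4 of the 9 globin genes tested were higher than in shCTR cells and 0 were lower: HBE1, HBZ, HBA2 and HBA1. Over all 17686 genes tested, 8.73% were called higher and 7.73% lower in this comparison (with library size alone as the scaling, 2158 genes were higher and 858 lower, against 1544 and 1368). The 9 members had a median log2 fold change of 0.41, all genes tested one of 0.00. HBM did not reach the minimum count and was not tested. The 5 other members, the fetal genes, the adult beta-like genes and HBQ1, were not called.

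HBE1, the embryonic beta-like gene, was read 3904 and 4214 times under shCTR, 7485 and 8685 times under shMETTL3 and 5413 and 5456 times under shMETTL14. This gave 209 ± 15.9, 407 ± 36.6 and 277 ± 2.00 CPM (SD, n = 2 each). The 3 groups did not overlap, as was so for 56.0% of all genes tested in shMETTL3 against shCTR, 48.9% in shMETTL14 against shCTR and 56.7% between the knockdowns. Compared with shCTR, HBE1 rose by a log2 fold change of 0.96 (standard error 0.0687, 1.95-fold, 95% interval 1.76 to 2.15, adjusted p = 1.64e-08) in shMETTL3 cells and of 0.41 (standard error 0.0688, 1.33-fold, 95% interval 1.20 to 1.46, adjusted p = 8.14e-04) in shMETTL14 cells. It was the only member called in both knockdowns.

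HBZ, the embryonic alpha-like gene, had 110 and 111 reads under shCTR, 201 and 258 under shMETTL3 and 130 and 103 under shMETTL14. The levels were 5.68 ± 0.164, 11.5 ± 1.86 and 5.93 ± 0.963 CPM (SD, n = 2 each). Both shMETTL3 libraries lay above the 4 others, while shMETTL14 and shCTR libraries overlapped. HBZ rose by a log2 fold change of 1.02 in shMETTL3 cells (standard error 0.159, 2.03-fold, 95% interval 1.61 to 2.56, adjusted p = 1.92e-04). In shMETTL14 cells the value was 0.06 (standard error 0.172, fold interval 0.814 to 1.34, adjusted p = 0.882). The pseudogene HBZP1, which shares windows with HBZ, had at most 3 reads in a library.

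The pair of alpha genes moved with HBZ. HBA2 had 337 and 365 reads under shCTR, 604 and 708 under shMETTL3 and 437 and 361 under shMETTL14. HBA1 had 528 and 704 reads under shCTR, 1008 and 924 under shMETTL3 and 596 and 544 under shMETTL14. For both genes the shMETTL3 libraries lay above the 4 others, and shMETTL14 and shCTR overlapped. HBA2 rose by 0.87 on the log2 scale in shMETTL3 cells (standard error 0.107, adjusted p = 1.46e-05) and HBA1 by 0.62 (standard error 0.109, adjusted p = 6.16e-04). In shMETTL14 cells the values were 0.17 for HBA2 (adjusted p = 0.415) and -0.13 for HBA1 (adjusted p = 0.577), and that of HBA1 turned on the shCTR libraries, at -0.34 (adjusted p = 0.0453) without replicate 1 and 0.12 (adjusted p = 0.508) without replicate 2. Since most of their sequence is shared, the pair was also tested as 1 row: the sum rose by 0.71 in shMETTL3 cells (log2 scale, adjusted p = 2.07e-05), and the value was -0.01 in shMETTL14 cells (adjusted p = 0.962).

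HBQ1, the theta-chain gene at the far end of the alpha cluster, had 673 and 757 reads under shCTR, 664 and 667 under shMETTL3 and 687 and 736 under shMETTL14. Its sequence is shared with no other gene in windows of 100 bases. The levels were 36.8 ± 3.88, 33.5 ± 0.397 and 36.3 ± 1.82 CPM (SD, n = 2 each), with both shMETTL3 libraries just below the 4 others. The log2 fold change was -0.13 in shMETTL3 cells (standard error 0.0862, fold interval 0.804 to 1.03, adjusted p = 0.314) and -0.02 in shMETTL14 cells (fold interval 0.871 to 1.12, adjusted p = 0.923). With a trend on GC content and length removed from each library, HBQ1 was called lower in shMETTL3 cells, at -0.27 (adjusted p = 0.0111). HBQ1 was thus not among the alpha-like genes that rose in shMETTL3 cells.

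The fetal genes were not called in any comparison. HBG2 had 138 and 125 reads under shCTR, 130 and 138 under shMETTL3 and 137 and 135 under shMETTL14, and HBG1 had 20 and 11, 14 and 22, and 10 and 13 reads in the same order. The groups overlapped in both comparisons with shCTR. HBG2 had a log2 fold change of -0.00 in shMETTL3 cells (fold interval 0.804 to 1.24, adjusted p = 0.993) and of 0.04 in shMETTL14 cells (fold interval 0.826 to 1.27, adjusted p = 0.925), so that a change of the size seen for HBE1 in shMETTL3 cells lies outside both intervals. For HBG1 the intervals were wide, at 0.623 to 2.08 and 0.384 to 1.42. HBG1 and HBG2 summed had log2 fold changes of 0.02 (adjusted p = 0.951) and -0.01 (adjusted p = 0.988).

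The adult beta-like genes were weakly read, and HBB lay close to the floor of 3 reads. HBD had 33 and 32 reads under shCTR, 32 and 44 under shMETTL3 and 32 and 42 under shMETTL14, and HBB had 8 and 3, 11 and 4, and 12 and 5. Groups overlapped for both genes. The fold intervals in shMETTL3 cells were 0.763 to 1.72 for HBD (adjusted p = 0.690) and 0.486 to 3.65 for HBB (adjusted p = 0.739), and in shMETTL14 cells 0.750 to 1.70 (adjusted p = 0.784) and 0.569 to 4.07 (adjusted p = 0.670), so that a 2-fold change of HBB was not detectable at this depth. HBM, the mu-chain gene, had 0 reads in 5 libraries and 1 read in the library of shMETTL3 replicate 2. By counting error alone, a count of 0 allows up to 3 reads. Of the 916 exon bases of HBM, 410 (44.8%) are also exons of HBZ or HBZP1, so reads that fit those models may have been left out.

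In shMETTL14 cells, 1 of the 9 globin genes tested was higher than in shCTR cells, HBE1, and 0 were lower, where 3.43% of all genes tested were called higher and 3.26% lower (743 and 443 genes with library size alone as the scaling, against 607 and 577). The 9 members had a median log2 fold change of 0.06, all genes tested one of -0.00.

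The 2 knockdowns share the shCTR libraries, so they were compared with each other directly. Of the 9 members, 4 were higher in shMETTL3 than in shMETTL14 cells, where 6.65% of all genes tested were called higher (1399 higher and 754 lower with library size alone, against 1177 and 971). The log2 difference was 0.96 for HBZ (standard error 0.158, adjusted p = 3.21e-04), 0.74 for HBA1 (standard error 0.109, adjusted p = 9.93e-05), 0.70 for HBA2 (standard error 0.105, adjusted p = 1.28e-04) and 0.56 for HBE1 (standard error 0.0680, adjusted p = 1.22e-05). HBG1 had 14 and 22 reads in shMETTL3 and 10 and 13 in shMETTL14 libraries, a log2 difference of 0.62 (standard error 0.439) that was not called (adjusted p = 0.417). Thus the alpha-like genes HBZ, HBA2 and HBA1 were higher in shMETTL3 cells than in either other group, and were not called in the main fit of shMETTL14 against shCTR. The same shMETTL3 libraries enter both comparisons, so these are not separate evidence. HBE1 stood highest in shMETTL3 cells, lowest in shCTR cells and between them in shMETTL14 cells.

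**Figure D3:**
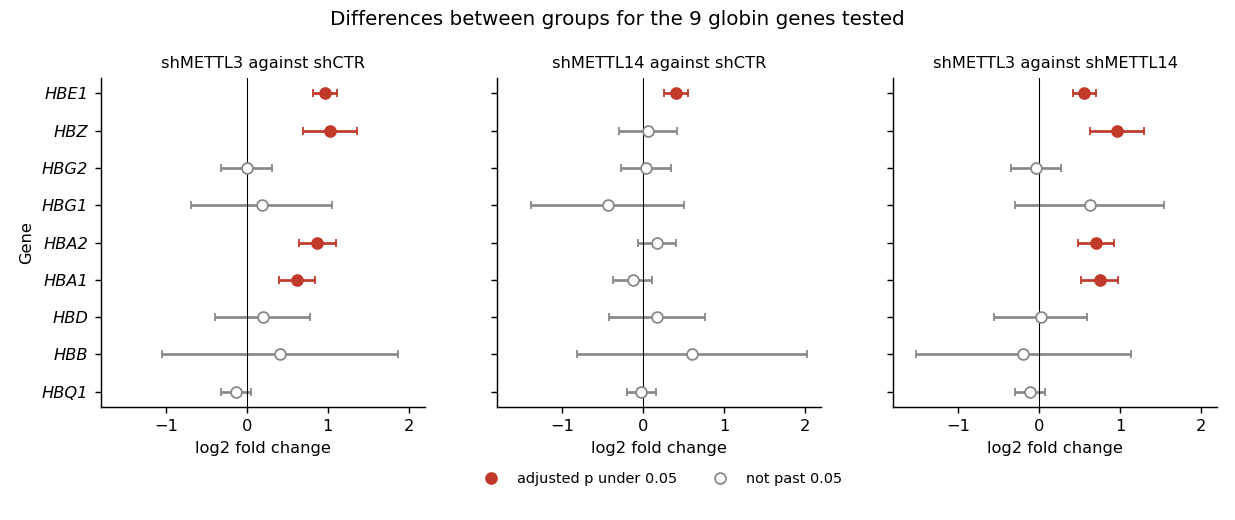
Log2 fold change of the 9 globin genes tested (points) with 95% intervals from edgeR's fit (bars) in the 3 comparisons; filled red points passed an adjusted p of 0.05. HBE1, HBZ, HBA2 and HBA1 lie right of 0 in shMETTL3 against shCTR and in shMETTL3 against shMETTL14, and HBE1 alone passed in shMETTL14 against shCTR.

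Shares of reads within a library need no scaling between libraries. With 2 libraries against 2, the exact two-sided permutation test cannot go below p = 0.333, so these shares are descriptions, with 95% exact (Clopper-Pearson) intervals for counting error only. HBZ took 6.67% (5.52 to 7.99) and 5.73% (4.74 to 6.86) of the alpha-like reads in shCTR, 8.11% (7.07 to 9.26) and 10.1% (8.95 to 11.3) in shMETTL3, and 7.03% (5.90 to 8.29) and 5.91% (4.85 to 7.12) in shMETTL14 libraries. HBA1 and HBA2 together took 52.5% and 55.2% in shCTR, 65.1% and 63.8% in shMETTL3, and 55.8% and 51.9% in shMETTL14 libraries. HBQ1 took the rest, 40.8% and 39.1%, 26.8% and 26.1%, and 37.1% and 42.2%. Both shMETTL3 libraries were thus apart from the 4 others in all 3 shares (exact p = 0.333 against shCTR), and the mean HBQ1 share differed from that in shCTR cells by -13.5 percentage points. The 3 shares are parts of the same total, so they are not separate evidence, and the level of HBQ1 itself was not called.

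In the beta cluster, HBE1 took 95.1% (94.4 to 95.8) and 96.1% (95.5 to 96.7) of the reads in shCTR, 97.6% (97.2 to 97.9) and 97.7% (97.3 to 98.0) in shMETTL3, and 96.6% (96.1 to 97.1) and 96.5% (96.0 to 97.0) in shMETTL14 libraries. The groups did not overlap. Alpha-like genes took 28.7% and 30.6% of all globin reads in shCTR, 24.4% and 22.3% in shMETTL3, and 24.8% and 23.6% in shMETTL14 libraries. The alpha-like share was therefore lower in all 4 knockdown libraries, with mean differences from shCTR of -6.27 percentage points for shMETTL3 and -5.45 for shMETTL14. The alpha-like level itself was 92.3 ± 12.6, 127 ± 0.980 and 91.6 ± 3.67 CPM in shCTR, shMETTL3 and shMETTL14 libraries (SD, n = 2 each), ratios of 1.37 and 0.992 to shCTR. The beta-like level was 218 ± 15.1, 417 ± 37.2 and 287 ± 2.16 CPM, ratios of 1.91 and 1.31. The HBA1 share of HBA1 and HBA2 reads was 61.0% and 65.9% in shCTR, 62.5% and 56.6% in shMETTL3, and 57.7% and 60.1% in shMETTL14 libraries, with overlap between shMETTL3 and both other groups and none between shMETTL14 and shCTR. The HBG1 share of HBG1 and HBG2 reads lay between 6.80% and 13.8% in the 6 libraries, each with an interval from counts of 10 to 22 reads.

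**Figure D4:**
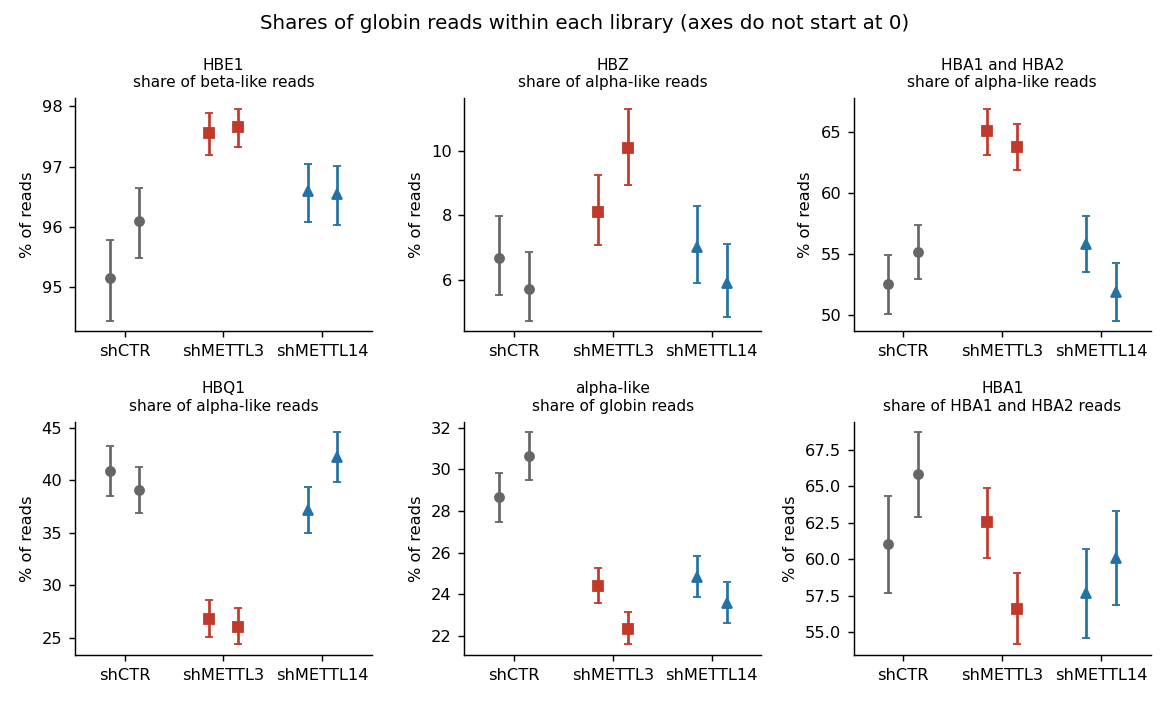
Share of globin reads taken by single genes or groups of genes in each library, in percent; bars are 95% exact binomial intervals and the axes do not start at 0. In shMETTL3 libraries HBQ1 takes 26.8% and 26.1% of the alpha-like reads, against 37.1% to 42.2% in the 4 other libraries, while HBA1 and HBA2 take 65.1% and 63.8% against 51.9% to 55.8%.

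The summed level of the 10 globin genes was 291 and 330.2 CPM in shCTR, 517 and 571 in shMETTL3, and 379 and 377 in shMETTL14 libraries. The group means were 311 ± 27.7, 544 ± 38.2 and 378 ± 1.51 CPM (SD, n = 2 each), ratios of 1.75 and 1.22 to shCTR. Without HBE1 the sum was 102 ± 11.8, 137 ± 1.58 and 101 ± 3.51 CPM, ratios of 1.34 and 0.996. In shMETTL14 cells, the summed level without HBE1 thus lay within the range of the shCTR libraries (93.5 and 110.1 CPM).

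Of the other genes in the clusters, HBBP1, a pseudogene between the fetal and adult genes, had 106 and 122 reads under shCTR, 151 and 174 under shMETTL3 and 120 and 127 under shMETTL14, and rose in shMETTL3 cells (log2 fold change 0.48, adjusted p = 0.0404). Of its bases, 88 are also exon bases of HBD. BGLT3, a noncoding RNA next to HBG1, had 91 to 130 reads and log2 fold changes of 0.25 (adjusted p = 0.356) in shMETTL3 and 0.33 (adjusted p = 0.305) in shMETTL14 cells. HBAP1 and HBZP1 had at most 3 reads, and so were not tested. Of the 4 globins outside the clusters (MB, CYGB, NGB and ADGB), 0 reached the minimum count.

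The lists of regulators and partners were set beside the members and read against the shares of all genes called. For each list and marker set that follows, these shares were 8.73% higher and 7.73% lower in shMETTL3 cells. In shMETTL14 cells they were 3.43% higher and 3.26% lower. Of 17 tested genes listed as activators of globin transcription, a list that holds KLF3, 4 were higher and 3 lower in shMETTL3 cells, and 3 were higher and 4 lower in shMETTL14 cells, with median log2 fold changes of 0.09 and 0.05. Not every listed gene acts only as an activator, so these counts give no direction for globin transcription. KLF1, the erythroid activator of the adult beta gene, rose by 0.36 (adjusted p = 0.00221) and 0.27 (adjusted p = 0.0330), and ZFPM1, a partner of GATA1, rose by 0.53 in shMETTL3 cells (adjusted p = 0.00137) and had a value of 0.32 in shMETTL14 cells (adjusted p = 0.0714). KLF3, which is counted among the genes higher in both knockdowns but is known as a repressor that shares binding sites with KLF1, rose by 0.38 (adjusted p = 3.71e-04) and 0.28 (adjusted p = 0.00955). RUNX1, a haematopoietic factor, fell by 0.33 (adjusted p = 0.00181) and 0.37 (adjusted p = 0.00158), and MYB, a factor of immature progenitors, fell by 0.29 (adjusted p = 0.00214) and 0.26 (adjusted p = 0.00853). GATA1, the main erythroid factor, had values of 0.09 (adjusted p = 0.374) and -0.10 (adjusted p = 0.421).

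Of 24 tested repressors of gamma-globin genes, 0 were higher and 5 lower in shMETTL3 cells, and 0 were higher and 1 lower in shMETTL14 cells. Over all genes tested, 7.73% were called lower in shMETTL3 and 3.26% in shMETTL14 cells. NR2C1, a nuclear receptor that binds the embryonic and fetal promoters, fell by 0.38 on the log2 scale (adjusted p = 0.00372), NFIA by 0.30 (adjusted p = 0.0276) and HDAC1 by 0.23 (adjusted p = 0.0150) in shMETTL3 cells. The other two, named after their values were seen, were EIF2AK1 (-0.20, adjusted p = 0.0198) and ZNF410 (-1.43, adjusted p = 0.0488, with 5 to 16 reads in a library). In shMETTL14 cells RCOR1 fell by 0.27 (adjusted p = 0.0209). BCL11A, the best known repressor of the fetal genes, had 2 to 6 reads in each library and was not tested, and ZBTB7A had values of 0.06 (adjusted p = 0.667) and 0.11 (adjusted p = 0.415). Of 5 tested genes of the fetal program, 1 was called in each knockdown: LIN28A, an RNA-binding protein, had 24 and 29 reads under shCTR, 82 and 59 under shMETTL3 and 67 and 58 under shMETTL14, and rose by 1.38 (adjusted p = 0.00125) and 1.22 (adjusted p = 0.00781).

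Of 15 tested genes of haem synthesis, 2 were higher and 1 lower in shMETTL3 cells and 3 were higher and 0 lower in shMETTL14 cells. ALAS2, the erythroid enzyme of the first step, had 274 and 309 reads under shCTR, 1040 and 996 under shMETTL3 and 652 and 687 under shMETTL14, with no overlap. It rose by 1.77 (adjusted p = 3.20e-10) and 1.19 (adjusted p = 1.51e-07), and its difference between the knockdowns was 0.59 (adjusted p = 6.40e-05), the same order of groups as for HBE1. GLRX5, which serves iron-sulfur clusters, rose by 0.18 (adjusted p = 0.0485) and 0.28 (adjusted p = 0.00697), TMEM14C, a porphyrin transporter, fell by 0.24 in shMETTL3 cells (adjusted p = 0.00913), and PPOX, a late enzyme, rose by 0.45 in shMETTL14 cells (adjusted p = 7.16e-04). Median log2 fold changes of the list were -0.07 and 0.04.

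Of 6 tested genes of globin chain handling and haem breakdown, 0 were higher in either knockdown and 1 was lower in shMETTL3 cells, BLVRA, a biliverdin reductase, which fell by 0.30 (adjusted p = 0.00502). AHSP, the chaperone of free alpha chains, had 28 to 37 reads in each library and values of -0.17 (adjusted p = 0.737) and 0.08 (adjusted p = 0.916). Of 8 tested genes listed as neighbours of the alpha cluster, which include ATRX, a remodeller needed for alpha-globin expression that lies elsewhere, LUC7L fell by 0.33 (adjusted p = 0.00179) and FAM234A rose by 0.32 (adjusted p = 0.0174) in shMETTL3 cells, and 0 were called in shMETTL14 cells. The alpha-like genes other than HBQ1 thus stood beside neighbours that did not all move with them.

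**Figure D5:**
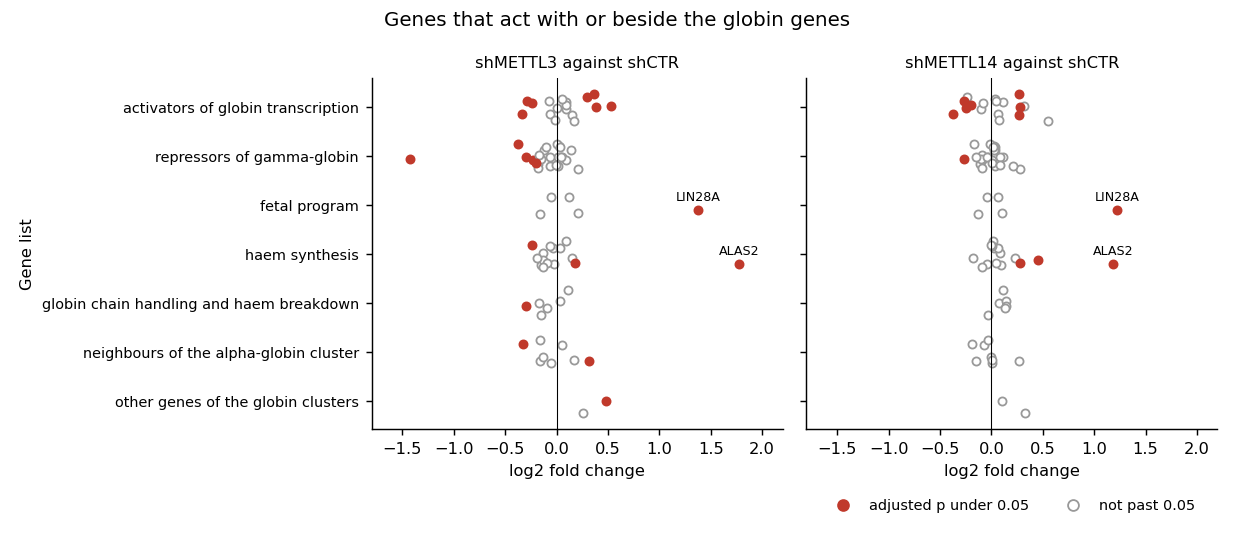
Log2 fold change of each tested gene of 7 lists in shMETTL3 and shMETTL14 cells against shCTR cells; each point is a gene, spread vertically at random within its list, and red points passed an adjusted p of 0.05. ALAS2 and LIN28A stand furthest right in both knockdowns, and the other points of these lists lie closer to 0, apart from 1 sparsely read repressor at -1.43.

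Markers of lineages moved between the groups as well. Of the 5 erythroid markers, EPOR and KLF1 were higher in both knockdowns, EPOR by 0.36 (adjusted p = 0.0129) and 0.40 (adjusted p = 0.0127). GATA1, TAL1 and TFRC were not called, with values of 0.09, -0.07 and -0.12 in shMETTL3 and -0.10, 0.06 and -0.17 in shMETTL14 cells. The summed erythroid level was 1405 to 1433 CPM in shCTR, 1384 to 1440 in shMETTL3 and 1350 to 1351 in shMETTL14 libraries. Of 3 tested megakaryocytic markers, 2 were higher in shMETTL3 cells: ITGA2B by 0.78 (adjusted p = 8.21e-05) and ITGB3, with 1 to 14 reads and named after its values were seen, by 1.75 (adjusted p = 0.0387). The summed megakaryocytic level was 16.1 to 16.5 CPM in shCTR, 25.0 to 27.6 in shMETTL3 and 14.0 to 15.7 in shMETTL14 libraries, with GP9 and PF4 at 0 reads in each library. Of 4 tested myeloid markers, LYZ fell by 1.43 (adjusted p = 1.39e-09) and SPI1 by 0.85 (adjusted p = 0.00117) in shMETTL3 cells, while LYZ rose by 0.54 (adjusted p = 1.19e-04) and CD33 by 0.74 (adjusted p = 5.22e-05) in shMETTL14 cells. The markers did not move as one: CD33 had a value of 0.28 (adjusted p = 0.0620) and ITGAM of 0.23 (adjusted p = 0.803) in shMETTL3 cells, and SPI1 of -0.23 (adjusted p = 0.420) and ITGAM of 0.47 (adjusted p = 0.644) in shMETTL14 cells. LYZ alone had 830 and 840 reads in shCTR, 324 and 310 in shMETTL3 and 1177 and 1273 in shMETTL14 libraries. The summed myeloid level was 72.4 to 82.3 CPM in shCTR, 46.7 to 48.8 in shMETTL3 and 103 to 112 in shMETTL14 libraries, with 3 of 7 markers at 3 reads or fewer in each library.

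The epithelial list, kept as a check for packaging cells, was present in each library, at 336 to 476 CPM in sum, with CDH1 at 0 reads. KRT8 alone averaged 304, 235 and 336 CPM in shCTR, shMETTL3 and shMETTL14 cells. By this list, packaging cells and expression in K562 cells cannot be told apart, and neither was tested. In shMETTL3 cells 3 of its 3 tested genes were lower: EPCAM by -0.57 (adjusted p = 2.12e-05), KRT8 by -0.37 (adjusted p = 3.12e-04) and KRT18 by -0.26 (adjusted p = 0.0125). In shMETTL14 cells EPCAM fell by 0.40 (adjusted p = 0.00130), while KRT8 had a value of 0.15 (adjusted p = 0.169) and KRT18 of 0.03 (adjusted p = 0.842). The summed epithelial level was 435 to 452 CPM in shCTR, 336 to 349 in shMETTL3 and 453 to 476 in shMETTL14 libraries. Of the lymphoid markers 1 was tested, and 0 were called. The part of these lineage differences in the globin results was not tested.

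By likeness of pattern, the genes that followed HBE1 most closely among 11053 candidates were IMPA2 (Pearson r = 0.998 of log2(CPM + 1) over the 6 libraries), NFE2L1-DT (0.994) and ANKRD19P (0.993). For HBZ they were RFC2 (0.999), PROSER2-AS1 (0.995) and TRIM56 (0.993), and for HBA1 and HBA2 summed PKMYT1 (0.993), SHOX2 (0.993) and PDLIM4 (0.991). For HBG1 and HBG2 summed, which varied little, they were SIX4 (0.977), MTRF1L (0.972) and PTPN12 (0.961). These values describe 6 libraries in 3 groups, and with so many candidates some are close to 1 whatever the genes are.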

How the data were processed

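The 6 RNA-seq libraries of K562 cells, 2 a group, were grouped by the submitters' titles. Poly(A) RNA was captured on oligo(dT) beads and primed at random, and the authors deposited raw counts, whole-number reads per gene, in 1 table of 61661 identifiers (986 of them genes that the authors numbered but did not name, 0.635% to 0.703% of the reads, and kept in library sizes and tests). The submitters' processing notes name HTSeq 0.6.1 and hg38; the aligner, annotation release, strand setting, read length and treatment of multiply mapped reads are not given in the sources used here. Columns were matched to libraries by their names, and 0 columns were left unused.

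Counts were tested with edgeR 4.0.16 in R 4.3.3: genes past filterByExpr (minimum count 10; 17686 genes), TMM scaling, all 6 libraries in 1 fit, the quasi-likelihood test, Benjamini-Hochberg adjustment over all genes tested, and a threshold of 0.05. Standard errors were taken from the fold change and the test's statistic, and 95% intervals from the same fit. Coordinates, exon overlaps and lengths came from GENCODE release 29 on GRCh38. The gene models counted by the authors differ from it at least in part, since AC104389.5 is not among the identifiers counted. A transcript in this release was found for 94.2% of the genes tested. Lengths, overlaps and window shares may therefore not match the models that were counted. Alternatives were DESeq2 1.42.0, its size factors, library size alone, no filter, the replicate block, the compared groups alone, summed paralogs, globin reads left out of the scaling, a trend on GC content and length removed with mgcv 1.9.3, and each library left out in turn. The fit was checked on simulated runs without a trend, each with 200 genes changed 2-fold. It called 76.5%, 74% and 78% of the changed genes. Of its calls, 9.47%, 12.4% and 4.29% were false, against a threshold of 0.05. Calls close to the threshold are therefore uncertain. Library totals of 19292574 to 20115304 reads set the precision, and intervals from counts cover counting error only.

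The members and gene lists were chosen with earlier results of these data known. Each member was named with its values in every library. Of the lists, HBBP1, BGLT3, HBAP1, HBZP1, AHSP, ALAS2, BCL11A, ZBTB7A, KLF1, GATA1 and MYB were named always, and otherwise at most 4 genes per list, those with the largest fold changes past the threshold in a knockdown, with at least 10 reads in each library and no overlap between groups. Other listed genes were named outside this rule, to show the rest of a list or, where the text says so, after their values were seen. For likeness of pattern, the 3 genes with the highest correlation and a mean of at least 100 reads were named. One gene of the erythroid marker list is not reported here, and its list was summed and counted without it.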

Additional observations from a re-analysis of the deposited data

Results flagged for a closer look

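For 4 globin genes shMETTL3 cells differed from shMETTL14 cells, by edgeR's quasi-likelihood test of the difference itself (adjusted p under the threshold of 0.05 for each). The log2 difference was 0.96 for HBZ, 0.74 for HBA1, 0.70 for HBA2 and 0.56 for HBE1. Each of these differences was in the direction of a higher level in shMETTL3 cells, in 2 of 2 libraries against both shMETTL14 libraries, a lack of overlap that 56.7% of all genes tested had in this comparison. HBA1 and HBA2 share most of their sequence, so their values are not separate evidence. With 2 libraries a group, no single library was tested for standing apart.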

How the results depend on the processing

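In shMETTL3 against shCTR, HBE1 and HBZ were called higher under each of 15 alternatives, and HBA2 and HBA1 under each of the 14 that kept them as separate genes (their sum was called in the other). The log2 fold change lay between 0.87 and 1.05 for HBE1, 0.85 and 1.18 for HBZ, 0.77 and 0.97 for HBA2 and 0.40 and 0.86 for HBA1 with each library left out in turn, and the largest adjusted p over all alternatives was 0.0170, for HBA1. In shMETTL14 against shCTR, HBE1 was called under every alternative, with values from 0.33 to 0.49 with a library left out and a largest adjusted p of 0.0214. The number of members called in that comparison was 1 to 2 with a library left out: without shCTR replicate 1, HBA1 was also called, lower, at -0.34 (adjusted p = 0.0453), while without shCTR replicate 2 it stood at 0.12 (adjusted p = 0.508), and the cause was not tested. HBQ1 was called lower in shMETTL3 cells only with the trend on GC content and length removed (-0.27, adjusted p = 0.0111). With reads divided by gene length, the alpha-like share in shMETTL3 minus that in shCTR cells was -8.46 percentage points, against -6.27 without, since the genes differ in length.

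Whether the replicate numbers pair the libraries is not stated in the sources used here, and the main fit treated them as unpaired. Deviations from group means correlated at 0.189 between shCTR and shMETTL3, -0.0288 between shCTR and shMETTL14 and -0.0307 between the knockdowns. With the replicate block, 4, 1 and 4 members were called in the 3 comparisons, as without it, and 3264, 1459 and 2478 genes in all, against 2912, 1184 and 2148. DESeq2 called 1881, 763 and 1327 genes in all, no filter gave 766 in shMETTL14 against shCTR, and with a library left out the counts ran from 1102 to 3569, 341 to 1913 and 942 to 2953. Depth limits HBM, HBB and HBG1, and neither the split of reads within paralog pairs nor their absolute summed level can be settled from counts.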
